A study of Rattus norvegicus with 7 samples.

Results

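The genes described here encode 10 proteins of the synaptic vesicle and of the machinery that fuses it with the plasma membrane: Snap25, Stx1a, Vamp1 and Vamp2, Syt1, Syp, Sv2a and Sv2b, and Syn1 and Syn2. They were chosen by name, and every probe set that the platform annotation gives to 1 of these symbols was taken. All 10 were on the array, with 19 of the 8740 probe sets (10 of 4736 named genes). A probe set is the group of short array probes that measures 1 transcript, and 4 of the genes had 1 and the other 6 had several. The cultures were primary hippocampal neurons and primary hippocampal astrocytes of Wistar rats, with an age of 17 days in the labels, and no genotype or transgene is named for any of them. Neurons were given an extract of grape seeds, which are rich in polyphenols, at 1 or 10 µg/ml, and their control received 0 µg/ml. Astrocytes were given the extract at 1, 10 or 100 µg/ml, and their control received 0 µg/ml, all for 24 h. Each of the 7 combinations was measured on 1 array, and this small number limits how precise a value can be. The labels do not say how many cultures or animals lie behind an array.

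A nerve terminal releases transmitter when a vesicle fuses with the plasma membrane. Fusion is driven by the SNARE proteins, in which the vesicle protein synaptobrevin (Vamp1, Vamp2) zips together with Snap25 and syntaxin 1 (Stx1a) of the plasma membrane, and synaptotagmin 1 (Syt1) triggers it when calcium enters. Synaptophysin (Syp) and the SV2 glycoproteins (Sv2a, Sv2b) are membrane proteins of the vesicle, and the synapsins (Syn1, Syn2) hold vesicles in a reserve cluster. Astrocytes can also secrete by SNAREs, for which non-neuronal relatives such as Snap23 and Vamp3 are known.

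Promoter sequence was available in the RefSeq table (build GRCr8, 250 bases before to 50 bases after the gene start) for 9 of the 10 genes, all but Snap25. Their GC content ran between 53.3% and 71.0%, against a median of 51.7% over 33469 promoters, and their ratio of observed to expected CpG between 0.26 (Syt1) and 0.86 (Vamp2), against a median of 0.39. The cyclic AMP response element TGACGTCA, the site of CREB-type factors, was found in Syn1, 190 bases before the start, and in Vamp1, 71 bases before it, searching both strands. It was in 2 of the 9 promoters and in 1.83% of all promoters. The first part of the RE1 element, TTCAGCACC, to which the repressor REST of non-neuronal cells binds, was in none of the 9 and in 0.356% of all. The whole RE1 (that part, any 2 bases, then GGACAG, any base and GCC) was in none of the 9 either with up to 3 mismatches at its 18 fixed bases, against 0.105% of all. TATAAA was in none of the 9 and in 14.2% of all. These are matches of letters in a short window, not measured sites. A site outside the window, or cut by its edge, could not be found. The Syn1 window opens with acagagcc, which matches the last letters of the searched RE1, so an RE1 there is not excluded. The windows of Syn1 and Vamp1 are shown for their match, in capitals, and that of Sv2b, which has no match, for the difference between cell types given below.
Syn1, chrX:3725495-3725794, plus strand: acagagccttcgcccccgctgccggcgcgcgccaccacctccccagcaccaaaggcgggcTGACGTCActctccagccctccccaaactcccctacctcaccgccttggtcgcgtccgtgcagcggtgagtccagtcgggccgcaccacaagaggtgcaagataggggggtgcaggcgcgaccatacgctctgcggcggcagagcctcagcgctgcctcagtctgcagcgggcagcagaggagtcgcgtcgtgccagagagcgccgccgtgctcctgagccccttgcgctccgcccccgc
Vamp1, chr4:159698644-159698943, plus strand: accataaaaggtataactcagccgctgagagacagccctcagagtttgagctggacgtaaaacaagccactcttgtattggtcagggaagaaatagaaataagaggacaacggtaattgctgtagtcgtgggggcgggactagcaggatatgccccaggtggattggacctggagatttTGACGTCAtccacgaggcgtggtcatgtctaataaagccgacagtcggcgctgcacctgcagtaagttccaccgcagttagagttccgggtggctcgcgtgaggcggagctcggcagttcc
Sv2b, chr1:138562209-138562508, minus strand: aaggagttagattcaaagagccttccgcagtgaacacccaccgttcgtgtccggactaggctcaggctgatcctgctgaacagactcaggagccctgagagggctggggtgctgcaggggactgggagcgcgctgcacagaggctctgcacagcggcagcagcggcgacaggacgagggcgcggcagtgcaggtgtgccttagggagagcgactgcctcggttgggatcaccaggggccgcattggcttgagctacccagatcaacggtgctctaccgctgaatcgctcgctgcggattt

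Signals are the authors' scaled intensities. The trimmed mean lay between 500.73 and 500.87 on all 7 arrays, and the median between 84.6 and 87.7 in neurons and between 65.4 and 84.1 in astrocytes. Before log2 was taken, signals under 17.9, their 25th percentile, were raised to that floor and folds are ratios of geometric means of these values. Where all 3 shared-dose astrocyte arrays were at the floor and no neuron array was, the fold is a lower bound and is written as "at least". Markers bore on the labels as follows. All 5 measured neuron markers were higher in neurons, and their summed signal was 16104 to 16977 in neurons, against 600 to 1323 in astrocytes. Chgb, a granule protein of neurons, lay at or under 9.9 in every astrocyte array and Nefl, a neurofilament, at or under 35.1, while Map2, a dendritic protein, still had 382 to 1037. Of 7 astrocyte markers tested, Slc1a3 and Aqp4 were higher in neurons, S100b was lower and 4 did not pass, with sums of 33001 to 36252 in neurons and 29101 to 34616 in astrocytes. All 5 oligodendrocyte, 4 microglia and 6 fibroblast markers tested were lower in neurons, while of 2 endothelial markers tested Kdr was higher (2.56 log2) and Flt1 did not pass (0.14). The astrocyte cultures thus held signal of other cell types, and the neuron cultures held signal of astrocyte genes. In such mixed cultures fewer cells of a type and less RNA per cell cannot be told apart, and the part of cell mixture in the values below was not tested.

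The first comparison set neurons against astrocytes at the shared doses of 0, 1 and 10 µg/ml, 3 arrays each, where the arrays at different doses stand in for replicates. In the limma fit of the probe sets above a signal filter (adjusted p under 0.05, Benjamini-Hochberg), 8 of the 10 genes were tested. All 8 were higher in neurons and none was lower: Snap25, Stx1a, Vamp2, Syp, Sv2a, Sv2b, Syn1 and Syn2. Vamp1 and Syt1 were under the filter. The differences ran from 1.90-fold for Syn1 to 31.1-fold for Sv2b, which had 1 astrocyte array at the floor. Of the 19 probe sets, 12 passed the filter (a mean signal above 79.9, the median of all signals, in either cell type) and 11 of these were called higher in neurons, as were 24.9% of all 4736 probe sets tested. For 7 of the 12 the filter was passed through neurons alone, so a difference was built into their choice. With no filter, 15 of the 19 were called higher in neurons, against 12.0% of all 8740. With a filter on the mean of both cell types, an alternative chosen after seeing the data, 9 of 10 were called, against 23.4% of all. All neuron arrays lay above all shared-dose astrocyte arrays in 16 of the 19, against 20.6% of all probe sets. A difference of 4-fold or more was found in 8 of the 12, against 4.67% of all tested. These 8 include all 7 that passed the filter through neurons alone, and the folds of M27925_at (Syn2) and L10362_at (Sv2b) are lower bounds. Without a filter the median log2 difference of the 19 was 1.49, against 0.00 for all probe sets.

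**Figure D1:**
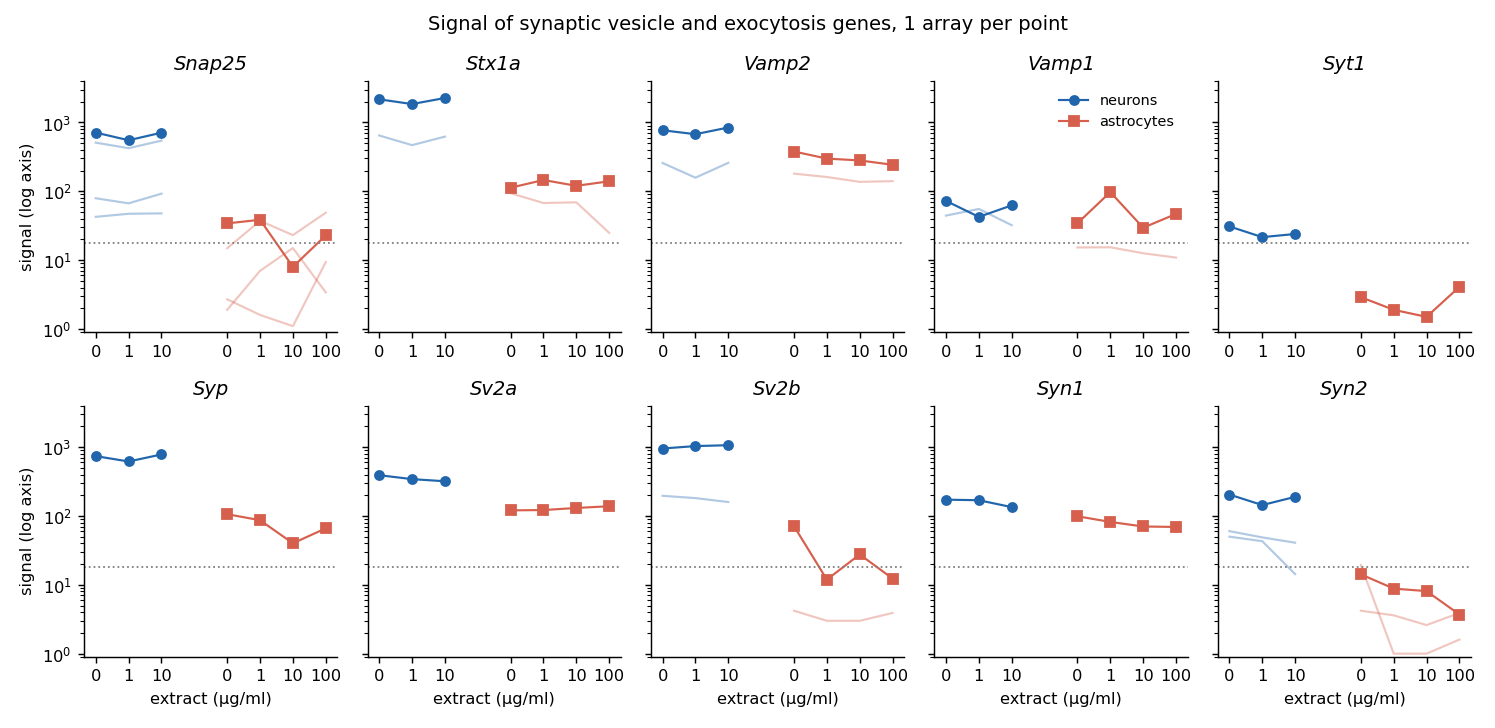
Signal of the 10 genes on each of the 7 arrays (log axis), with neurons at 0, 1 and 10 µg/ml left and astrocytes at 0, 1, 10 and 100 µg/ml right in each panel. Markers show a gene's brightest probe set, pale lines its other probe sets (drawn at 1 where lower) and the dotted line the floor of 17.9. At the brightest probe sets, the neuron points lie above every astrocyte point in each gene other than Vamp1.

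Among the SNARE proteins of the plasma membrane, Snap25 gave 713, 552 and 711 in neurons treated with 0, 1 and 10 µg/ml, read at its brightest probe set (AB003991_g_at), against 34.2, 38.6, 8.0 and 22.9 in astrocytes at 0, 1, 10 and 100 µg/ml. The lowest neuron array was thus far above the highest astrocyte array. The difference at shared doses was 22.8-fold with 1 of the 3 astrocyte arrays at the floor, or 4.51 ± 0.30 log2 (SE, adjusted p = 1.63e-05, limma). A second probe set of the same transcript (AB003991_at) gave 19.7-fold, also with 1 astrocyte array at the floor. The remaining pair of Snap25 probe sets was dimmer, with neuron signals of 42.6 to 92.4 and astrocyte signals at or under 15.0, all at the floor, and gave at least 2.56-fold and at least 4.4-fold in the fit without a filter.

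Stx1a had 2171, 1852 and 2269 in neurons and 113, 146, 120 and 140 in astrocytes (D10392_i_at). None of its astrocyte signals was at the floor, so the 16.6-fold difference (95% interval 13.1 to 21.1, adjusted p = 8.97e-07, limma) is a measured one. Its other probe set (D12519_s_at) had 648, 469 and 623 in neurons and 93.9, 67.6, 69.2 and 24.9 in astrocytes, a difference of 7.55-fold. Both probe sets therefore put Stx1a higher in neurons, by unequal amounts.

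Of the vesicle SNAREs, Vamp2, the main synaptobrevin of forebrain synapses, had 771, 675 and 845 in neurons and 379, 299, 281 and 243 in astrocytes (M24105_at). The groups did not overlap, and the difference was 2.40-fold (95% interval 1.86 to 3.10, adjusted p = 4.77e-04, limma). A second Vamp2 probe set (rc_AI101103_s_at) had 258, 158 and 259 in neurons and 181, 161, 137 and 140 in astrocytes, which overlap, and its 1.38-fold difference did not pass (95% interval 0.951 to 2.01, adjusted p = 0.140). The array of neurons at 1 µg/ml was the low one there, and without it this probe set was called as well, which made 12 of 12.

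Vamp1, the synaptobrevin best known from spinal cord and motor terminals, was dim and passed the filter at neither of its probe sets. At the brighter (M24104_g_at) it had 72.6, 42.5 and 62.5 in neurons, against 34.3, 97.5, 29.6 and 46.9 in astrocytes, where the highest value of all was that of astrocytes at 1 µg/ml. The groups overlapped, and a difference was not detectable at this signal (1.25-fold, 95% interval 0.463 to 3.37, adjusted p = 0.817, limma without a filter). The other probe set (M24104_at) had 44.4, 55.4 and 32.2 in neurons and 10.9 to 15.4 in astrocytes, all at the floor, and was called at 2.40-fold or more (adjusted p = 0.0164, limma without a filter). Its probe sets thus disagree.

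Syt1, the calcium sensor of fast release, was near the floor on every array, with 30.9, 21.6 and 24.0 in neurons and 2.9, 1.9, 1.5 and 4.1 in astrocytes. The neuron arrays lay above the astrocyte arrays. Measured from the floor, the difference was at least 1.41-fold and did not pass (adjusted p = 0.0773, limma without a filter). It has a single probe set here, made from the coding sequence, and a low signal of a probe set is no measure of how much of a transcript is present.

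Of the vesicle membrane proteins, Syp, the protein most used to stain synapses, had 740, 618 and 783 in neurons and 106, 86.7, 40.1 and 66.1 in astrocytes. No astrocyte array reached the lowest neuron array, and the difference was 9.90-fold (95% interval 5.70 to 17.2, adjusted p = 1.79e-04, limma). Sv2a, the binding site of the antiepileptic drug levetiracetam, had 391, 343 and 319 in neurons and 121, 122, 131 and 138 in astrocytes. Its groups did not overlap either, with 2.81-fold (95% interval 2.23 to 3.56, adjusted p = 1.25e-04). Across the astrocyte doses Sv2a stayed within a narrow range, all above the floor.

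Sv2b, its close relative, had 955, 1035 and 1066 in neurons and 71.0, 11.9, 27.6 and 12.3 in astrocytes (rc_AI639484_at). The groups were far apart, and the difference was 31.1-fold with 1 of the 3 astrocyte arrays at the floor, or 4.96 ± 0.45 log2 (SE, adjusted p = 8.42e-05, limma). The ratio depends on where the floor was set. Within astrocytes the untreated array was the highest for this probe set, but all of these signals lay under the filter. The other Sv2b probe set (L10362_at) had 196, 182 and 159 in neurons and at most 4.2 in astrocytes, all at the floor, which gave at least 9.97-fold. Whether Sv2a and Sv2b differ from each other in this respect was not tested, since each probe set has a background of its own.

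The synapsins are phosphoproteins on the outer face of the vesicle. Syn1 had 172, 169 and 134 in neurons and 98.9, 81.9, 70.3 and 69.2 in astrocytes. The groups did not overlap, yet the difference was small, 1.90-fold (95% interval 1.38 to 2.62, adjusted p = 0.00665, limma). Syn2 had 205, 144 and 189 in neurons and 14.2, 8.8, 8.1 and 3.7 in astrocytes (M27925_at), so all astrocyte arrays were at the floor and the difference was at least 9.91-fold (adjusted p = 1.19e-05). Its other probe sets were dim in neurons, at 14.3 to 60.2, and gave 2.68-fold (adjusted p = 0.00474, limma) and 1.89-fold (adjusted p = 0.238) in the fit without a filter, with most of their astrocyte arrays at the floor.

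For 7 of the 19 probe sets all shared-dose astrocyte arrays were at the floor. Their raised values have no spread, so the standard errors of such differences, and the p-values from them, are too small. The p-values in general measure the spread between arrays at different doses.

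**Figure D2:**
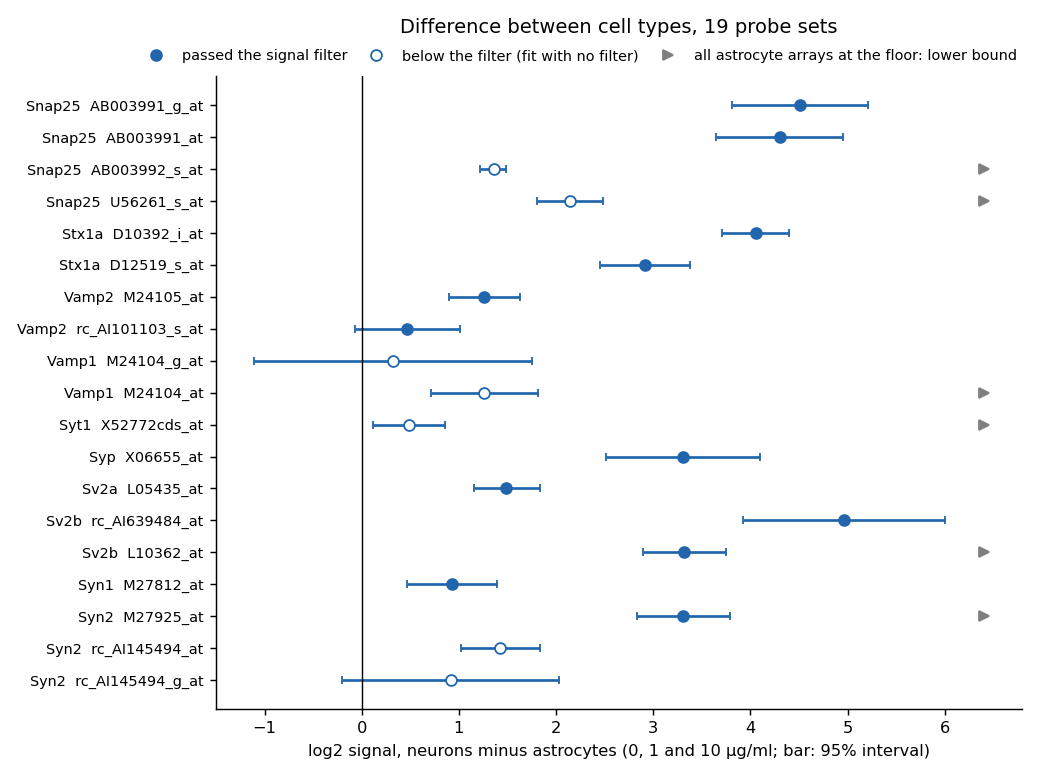
Log2 difference between neurons and astrocytes at 0, 1 and 10 µg/ml for each of the 19 probe sets, with 95% intervals from limma. Filled points passed the signal filter, open points are from the fit without it, and grey arrowheads mark probe sets with all astrocyte arrays, and no neuron array, at the floor, for which the difference is a lower bound. All 19 points lie right of 0, from 0.32 (Vamp1) to 4.96 (Sv2b).

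Other genes of vesicle release were read from 4 lists, with the brightest probe set of each gene. Over all tested probe sets 24.9% were higher and 19.7% lower in neurons, with a median log2 difference of 0.07. Without a filter 12.0% of all 8740 were higher in neurons, and 1818 were called in either direction, with a median of 0.00. On the list of vesicle membrane and vesicle-bound proteins, 11 of 21 tested genes were higher in neurons and 1 was lower, with a median of 0.53. The largest differences were those of Slc32a1, the vesicular GABA transporter (at least 4.77 log2, adjusted p = 1.27e-06, limma, with 0.42 at its other probe set), Svop, a relative of SV2 (3.50), Rab3a, a vesicle GTPase (2.57), and Syt5, a synaptotagmin (1.86). Of the genes called higher, Slc32a1, Svop, Rab3a, Syt12, Sncb and Sncg passed the filter through neurons alone. A difference was thus built into their choice. Scamp2, a carrier protein of secretory membranes in many cell types, was the 1 that was lower (-0.64, adjusted p = 0.00173). Another 15 genes of this list were on the array but under the filter, such as Slc17a7, the vesicular glutamate transporter, with means of 4.23 in neurons and 4.03 in astrocytes. Without a filter 7 of 36 were higher and 1 was lower, with a median of 0.36.

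Among the other SNAREs and their regulators, 3 of 15 tested genes were higher in neurons, 2 were lower and 10 did not pass, and the list median was -0.22. Higher were Cplx2, a complexin that clamps the SNARE complex (1.92 log2, 479 ± 13.4 in neurons and 127 ± 12.1 in astrocytes, SD, n = 3 each, adjusted p = 2.46e-05 from limma), Ykt6 (0.97) and Stx12 of endosomes (0.36). Ykt6 passed the filter through neurons alone. Lower were Vamp5, a synaptobrevin relative of muscle and other non-neuronal cells (-2.33, 98.3 ± 7.35 in neurons and 502 ± 113 in astrocytes, with 0.12 at its other probe set), and Stx8 of endosomes (-0.54). The non-neuronal relatives Vamp3 (-0.22, adjusted p = 0.0668) and Snap23 (-0.42, adjusted p = 0.0782) did not pass in limma. Without a filter 2 of 21 were higher and 4 lower, with a median of -0.12. Nsf, the ATPase that takes used SNARE complexes apart, was under the filter, with means of 5.17 in neurons and 4.13 in astrocytes.

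On the list of active zone, priming and release genes, 4 of 12 tested were higher in neurons and 2 lower, with a median of 0.35. Cadps (3.17 log2, adjusted p = 5.55e-06, limma) and Cadps2 (2.14), priming factors of dense-core vesicles, and the presynaptic adhesion proteins Nrxn3 (2.60) and Nrxn2 (1.02) were the higher ones. Among them, Cadps2 and Nrxn3 passed the filter through neurons alone. Exoc3 (-0.45) and Exoc7 (-0.40), of the exocyst that tethers vesicles in all cells, were lower. Without a filter 5 of 28 were higher and 3 lower, with a median of 0.00. For vesicle endocytosis, 4 of 22 tested were higher and 3 lower, with a median of 0.01, and without a filter 2 of 26 were higher and 2 lower (median 0.08). The dynamins, which cut vesicles off the membrane, went both ways. Dnm1, the neuronal form, was higher (2.22 log2, adjusted p = 1.30e-05, limma), while Dnm2, the form of all tissues (-0.91), and Dnm3 (-1.65) were lower. Dnm3 passed the filter through astrocytes alone, with 14.1 (at the floor), 29.6 and 65.9 in neurons at 0, 1 and 10 µg/ml. Synj2 (0.84), Sh3gl3 (0.69) and Rab5a (0.32) were also higher and Rab11a (-0.65) was lower. Clta (-0.06) and Cltb (0.20) did not pass at their brightest probe sets, but the highest of their other probe sets stood at 3.79 and 3.38 without a filter. Ykt6, Stx12 and Nrxn2 each had a second probe set with a difference of 0.00. A probe set with every array at the floor, such as that of Nsf, also gives 0.00, so this value need not be a measured one.

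**Figure D3:**
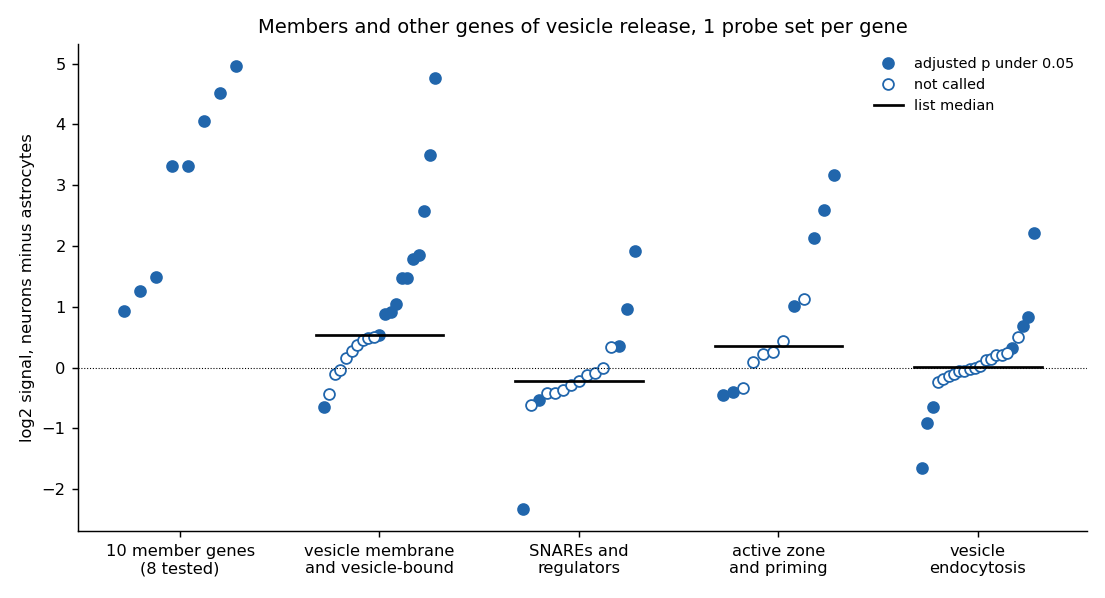
Log2 difference between neurons and astrocytes (0, 1 and 10 µg/ml, 3 arrays each) for the 8 tested genes of the 10 and for the tested genes of 4 lists, 1 brightest probe set per gene. Filled points had adjusted p under 0.05 in limma and bars are list medians. Some of the tested genes passed the filter through 1 cell type alone, so a difference was built into their choice. The list medians lie between -0.22 for SNAREs and 0.53 for vesicle proteins.

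Extract effects in neurons rest on 1 treated array per dose, set against 1 untreated array, so a single dose has no test. None of the 12 probe sets that passed the filter in neurons differed 2-fold at 1 or at 10 µg/ml, as did 0.561% and 0.764% of all 4453. At 1 µg/ml most signals were a little lower than untreated: 11 of the 12 were below 0, as were 50.3% of all probe sets, and their median log2 change was -0.24, against 0.00 for all. The lowest were the second Vamp2 probe set (-0.71), Syn2 (-0.51) and the second Stx1a probe set (-0.47). Snap25 stood at -0.37, Syp at -0.26, Stx1a at -0.23, Vamp2 and Sv2a each at -0.19 and Syn1 at -0.03. Sv2b was the 1 above 0, at 0.12, although its other probe set stood at -0.11. At 10 µg/ml the 12 had a median of 0.00, against -0.01 for all, with 6 above 0 and 6 below. Syp (0.08), Stx1a (0.06), Vamp2 (0.13) and Snap25 (0.00) lay between 0.00 and 0.13, while Syn1 (-0.36), the second Sv2b probe set (-0.30) and Sv2a (-0.29) were the lowest.

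In 8 of the 12 probe sets the array at 1 µg/ml was the lowest of the neuron arrays, as it was in 34.7% of all probe sets. These probe sets cover few genes, and all share the same arrays. The array at 1 µg/ml also had the highest ratio of 3′ to 5′ signal for Gapdh, a measure of RNA length, at 3.24, against 2.73 at 10 µg/ml and 2.67 untreated. The same ratio for actin was 10.51 at 1 µg/ml, 10.75 at 10 µg/ml and 10.51 untreated, so there the array did not stand apart. On it the 5 neuron markers had a median change of -0.12. The part of RNA quality in the lower signals was not tested. No probe set of the 10 genes was called for a slope on dose in neurons (limma, adjusted p under 0.05), and 0% of 4709 probe sets were. At an unadjusted p under 0.05 there were 0 of the 12 and 90 of the 4709. The fitted slopes ran from -0.36 for Syn1 to 0.19 for Vamp2, in log2 per unit of log10(dose + 1), and the interval for Syn1 reached from -1.08 to 0.35, and a change within it was not detectable.

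**Figure D4:**
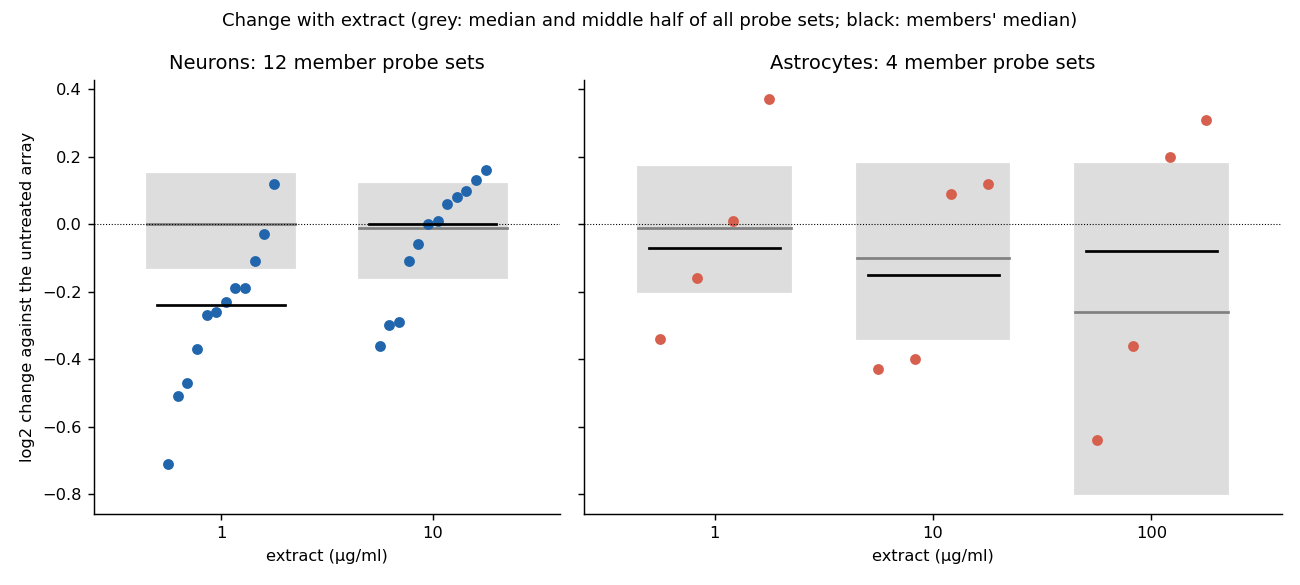
Log2 change of each treated array relative to 0 µg/ml in the same cells, for the 12 probe sets of the 10 genes that passed the filter in neurons (left) and the 4 in astrocytes (right). Black bars are their medians, and grey boxes with a line are the interquartile range and median of all probe sets. The neuron medians were -0.24 (1 µg/ml) and 0.00 (10 µg/ml).

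Extract effects in astrocytes were read at the 4 probe sets with a mean over all 4 astrocyte arrays above the filter: the brighter one of Stx1a, both of Vamp2 and that of Sv2a. None of them differed 2-fold from untreated at any dose, as did 2.00%, 6.51% and 25.6% of all 4252 at 1, 10 and 100 µg/ml. Vamp2 was below its untreated signal at each dose, on single arrays. Its changes were -0.34, -0.43 and -0.64 log2 at 1, 10 and 100 µg/ml, and -0.16, -0.40 and -0.36 at its second probe set. The median of all probe sets was -0.01, -0.10 and -0.26 at these doses. Stx1a stood at 0.37, 0.09 and 0.31, and Sv2a at 0.01, 0.12 and 0.20, both above the median of all probe sets at 100 µg/ml. The other Stx1a probe set, under the filter in astrocytes, went the other way, with -0.47, -0.44 and -1.91. Syn1, which passed at the shared doses but not over all 4 arrays, stood at -0.27, -0.49 and -0.52. Over the 4 the median at 100 µg/ml was -0.08.

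A slope on dose in astrocytes was called for 1 of the 12 probe sets tested, against 20.6% of all. Only 4 of the 12 had a mean above the filter in astrocytes, and the others entered the test through neurons. Syn2 (M27925_at) and the second Sv2b probe set were at the floor on every astrocyte array, which fixed their slopes at 0.00. The called one was the dimmer probe set of Stx1a (-0.87 ± 0.21, SE, adjusted p = 0.0329, limma), whose signal in astrocytes lay under the filter. The brighter one had a slope of 0.08 (adjusted p = 0.730, limma). The call was lost when any of the 3 neuron arrays, the untreated astrocyte array or the one at 1 µg/ml was left out, and with ranked doses, quantile normalization or no filter. Calls over all probe sets fell as well, from 969 to 30 when any single neuron array was left out. They numbered 704 without the untreated astrocyte array and 78 without the one at 1 µg/ml. With ranked doses they were 47, with quantile normalization 852 and with no filter 10. Vamp2 had a slope of -0.27 (95% interval -0.58 to 0.03, adjusted p = 0.173). Slopes did not differ between the cell types in any of the 12 (0 at an unadjusted p under 0.05, smallest adjusted p = 0.498, limma), and 0.0212% of all probe sets were called. The interval of the slope difference reached from -0.24 to 1.16 for Vamp2 and from -0.21 to 2.06 for the dimmer Stx1a probe set, and differences within these were not detectable.

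Other vesicle release genes were past 2-fold in astrocytes at 100 µg/ml, on single arrays. Vamp5 gave 625, 477, 404 and 158 over the doses 0, 1, 10 and 100 µg/ml, a change of -1.99 log2 at the highest dose. Atp6v1b2, a subunit of the proton pump that loads vesicles and acidifies lysosomes, had 125, 141, 235 and 583 (2.23). Syt4, a synaptotagmin of secretory granules, had 60.0, 56.9, 73.0 and 219 (1.87). Both of the last were higher at 100 µg/ml than on every other astrocyte array, and Syt4 was above the filter signal of 79.9 on that array alone, so it passed only where it was high. Syt17 (-1.46), Cask (-1.18), a scaffold of the presynaptic membrane, Dnm2 (-1.24), Gdi2 (-1.21) and Pacsin2 (1.01) were also past 2-fold. Of the tested lists, vesicle proteins had 2 of 15 higher and 1 lower at this dose, SNAREs 0 and 1 of 12, active zone genes 0 and 1 of 8, and endocytosis genes 1 and 2 of 21. Over all probe sets 25.6% were past 2-fold at this dose, so these counts are not above the background. Pacsin2, an endocytic adaptor, was also the 1 gene of these lists past 2-fold among those that passed the filter in neurons at 10 µg/ml, with 204, 140 and 85.1 at 0, 1 and 10 µg/ml (-1.26), the opposite direction to astrocytes. Both are changes between single arrays.

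Over the 7 arrays, the mean log2 signal of the 10 genes' brightest probe sets was 8.44, 8.15 and 8.35 in neurons and 6.03, 5.95, 5.57 and 5.69 in astrocytes. The probe sets of other genes most like this profile were those of Cdh8, a cadherin (Pearson's r of 0.9991), Gap43, the growth cone protein (0.9976), Lsamp, a neuronal adhesion protein (0.9971), Scn3a, a sodium channel (0.9969), and Prkce, a protein kinase C (0.9968). Cdh8 had 189, 135 and 183 in neurons and 24.2, 23.1, 6.2 and 19.3 in astrocytes, with the same low array at 1 µg/ml in neurons. Such values mostly reflect the gap between 2 sets of arrays, and 57 of 3975 probe sets had r of 0.99 or more.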

How the data were processed

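Total RNA of each culture was labelled with biotin by a two-cycle procedure and hybridized to an Affymetrix rat array, per the labels' protocols. The deposited values are linear signal intensities that the authors computed with GCOS, per the submitters' processing notes. For GCOS, the sources used here give no version; its settings are likewise not stated in them. Of 8799 probe sets, 59 controls were left out. Symbols came from the platform annotation, looked up by gene ID in RefSeq: 7006 probe sets had 1 symbol, 308 several and 1426 none.

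Signals were raised to the 25th percentile (17.9) and put on the log2 scale. A probe set entered a test if its mean was above the median (79.9) in either cell type. Cell types (4 residual degrees of freedom) and slopes on log10(dose + 1) (3 residual degrees of freedom) were fitted with limma 3.58.1 in R 4.3.3 (trended eBayes), two-sided, adjusted by Benjamini-Hochberg over all probe sets tested. Changes between single arrays have no test. A gene of a list is represented by its brightest probe set. The text names, per list, up to 4 genes called in each direction and genes past 2-fold at the highest dose. Vamp3, Snap23, Slc17a7 and Nsf were picked with their values known. Both fits were first tested on simulated data. The members, lists and tests were chosen with earlier results of these data known. Plots used matplotlib 3.10.9 under Python 3.11.15.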

Additional observations from a re-analysis of the deposited data

Results flagged for a closer look

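At both shared doses the changes of Sv2a and Sv2b, each at its brightest probe set, had opposite signs in the 2 cell types. For Sv2a the log2 changes against untreated in neurons were -0.19 (1 µg/ml) and -0.29 (10 µg/ml), while astrocytes had 0.01 (1 µg/ml) and 0.12 (10 µg/ml). For Sv2b neurons had 0.12 and 0.16, while astrocytes had -1.99 and -1.36, where the signals lay under the filter and the array at 1 µg/ml at the floor. The other Sv2b probe set did not show this, with -0.11 and -0.30 in neurons and astrocyte signals at the floor, and the Sv2a change of 0.01 in astrocytes is close to 0. A difference at these doses alone was not tested. The slopes on dose over all arrays, which reach 100 µg/ml in astrocytes alone, had differences with adjusted p of 0.650 for Sv2a and 0.724 for Sv2b (limma). Each cell type's changes share 1 untreated array.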

How the results depend on the processing

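The count of 11 probe sets called between cell types was 7 with the stricter filter at the 75th percentile (435.7) and 7 with 1 mean value per gene, where 7 were tested in each. Over all features, calls in either direction numbered 1317 of 2499 probe sets with the stricter filter and 1237 of 2731 genes with 1 mean value. The count of member probe sets ran from 11 to 12 when 1 of the 6 arrays was left out. It stayed within 1.5 times under quantile normalization, no floor, no filter, all 7 arrays, a constant variance prior and the filter on both cell types. With dose as a block it was 11, and all 8 tested genes kept their direction and call in every alternative in which they were tested. The 1 astrocyte slope became 0 with ranked doses, quantile normalization and no filter, and ran from 0 to 1 without single arrays. The cause was not tested. The other slope counts stayed at 0. With no filter, where more and dimmer probe sets are counted, those past 2-fold numbered 1 of 19 for neurons treated with 10 µg/ml, against 0 with the filter. Over all 8740 probe sets 357 were past 2-fold there. For astrocytes the member probe sets past 2-fold numbered 3 (1 µg/ml), 2 (10 µg/ml) and 3 (100 µg/ml) of 19, against 0 with it. Over all 8740 they numbered 466, 728 and 1805 at these doses. No other alternative moved the members' counts of 0. The number of arrays and signals near the floor limit all comparisons.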
